A study of Nematostella vectensis with 8 samples.

Results

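The genes described here are dkk3-like3 (NV2t010134), NVE5730 (NV2t021271) and NVE13546 (NV2t022446) of the starlet sea anemone Nematostella vectensis. They were taken by name from the study's collection of 42 published cnidocyte genes, as 3 of the 10 members that are neither capsule, toxin-like nor transcription factor genes, and they are 3 of the 24520 genes, with 5 of the 35819 transcripts, of the deposited tables. RNA of whole gastrulae was sequenced 28 hours after fertilization at 24 °C. Wild-type embryos had received either a pair of short hairpin RNAs (shRNAs) against NvfoxE-like, a forkhead transcription factor gene, in 4 libraries, or a scrambled control RNA, also in 4 libraries. Every library held a pool of about 1000 injected embryos, so that a level is an average over all cell types of the embryo. The replicates carry numbers 1 to 4 in both groups, and the study's methods describe them as pairs of knockdown and control.

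Cnidocytes are the stinging cells of cnidarians, and each one builds a pressurized capsule from which a tubule is discharged. They belong to the neural lineages of the animal, and the collection marks each gene for the transcription factor genes on which its expression was found to depend, among them the zinc finger gene Nvznf845. Proteins of the Dickkopf family are secreted, and in vertebrates several of them block Wnt signalling, while Dickkopf-3 is the divergent member of the family. The collection names dkk3-like3 after that family. NVE5730 and NVE13546 are named by gene model only, and no protein or function is given for them in the sources used here. The row of the collection named NVE5730 lists the model NVE5729 beside NV2t021271, so the values belong to NV2t021271 whichever model is meant. All 3 genes carry the study's mark for dependence on Nvznf845 and none for NvfoxE-like or NvpaxA, and the marks for NvfoxE-like were made from these same libraries.

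The 8 libraries held between 18656270 and 26073612 estimated counts. Libraries differed more between replicate numbers than between groups: for the median gene of 19002 tested, 89.1% of the sum of squares of log2 CPM lay between replicate numbers and 1.87% between groups. The library names begin alike in replicates 1 and 2 and differently in replicates 3 and 4, while the labels give all libraries a single batch value. The targeted gene NvfoxE-like was at 36.7%, 44.9%, 25.3% and 32.2% of its same-numbered control in replicates 1 to 4, lower in 4 of 4 pairs as the labels state. Of 11 cnidocyte markers (minicollagens, other capsule and venom genes and early factors), 11 had counts in all 8 libraries.

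Per length, NVE13546 and dkk3-like3 were at like levels and NVE5730 was the lowest of the 3. Deposited TPM, a level per transcript length within each library's total, averaged 10.1 ± 6.91 in shRNA libraries and 16.7 ± 12.0 in controls for NVE13546. For dkk3-like3 it averaged 10.3 ± 2.59 TPM in shRNA libraries and 12.5 ± 2.43 TPM in controls, and for NVE5730 3.82 ± 1.72 TPM in shRNA libraries and 5.48 ± 2.59 TPM in controls (SD, n = 4 each). Both NVE13546 and dkk3-like3 exceeded NVE5730 in 8 of 8 libraries. The order of NVE13546 and dkk3-like3 was not fixed, since NVE13546 was the higher in 2 of 4 shRNA libraries and in 2 of 4 controls, with log2 TPM ratios of NVE13546 over dkk3-like3 from -2.52 to 0.85 in shRNA libraries and from -1.47 to 1.02 in controls. In the controls the 3 genes stood at the 75.0th (NVE13546), 69.5th (dkk3-like3) and 54.3rd (NVE5730) percentile of all genes with any count. Their sums ranged over the 8 libraries from 114 to 286 rounded counts for dkk3-like3, from 106 to 540 for NVE5730 and from 145 to 1930 for NVE13546, and all 3 passed the filter on low counts.

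**Figure D1:**
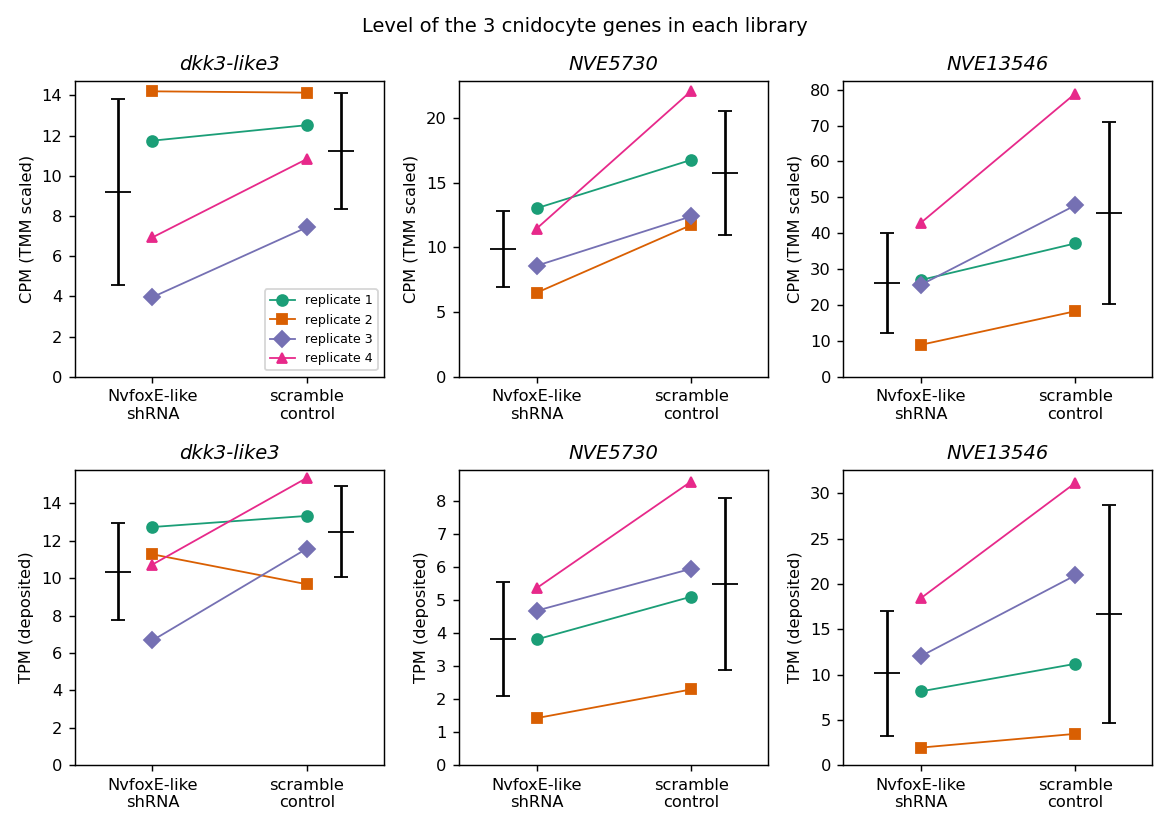
CPM after TMM scaling (top row) and deposited TPM (bottom row) of the 3 genes in each library, NvfoxE-like shRNA left and scramble control right. Lines join libraries of the same replicate number, and black bars give the mean and SD of 4 libraries. For NVE5730 and NVE13546 every line runs upward from shRNA to control, while for dkk3-like3 replicates 1 and 2 are nearly level in CPM.

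The shRNA library had less NVE13546 than its control in 4 of 4 pairs, while the pools themselves differed several-fold. Its level was 26.9, 8.88, 25.6 and 42.9 CPM in shRNA libraries 1 to 4, against 37.2, 18.2, 47.8 and 78.9 CPM in controls 1 to 4 (CPM, the count scaled to a common library size after TMM correction). Replicate 2 was lowest and replicate 4 highest in both groups, so the ranges of the groups overlapped widely. The highest shRNA library was 4.83 times the lowest, and the highest control 4.32 times the lowest. On the TPM scale these spans were 9.39 in shRNA libraries and 8.95 in controls, and why the scales differ was not tested. The levels were 8.16, 1.96, 12.0 and 18.4 TPM in shRNA libraries 1 to 4, against 11.2, 3.48, 21.0 and 31.2 TPM in controls 1 to 4. The share of the control level that remained was 72.5%, 48.6%, 53.6% and 54.3% in replicates 1 to 4 by CPM, and 72.9%, 56.4%, 57.4% and 59.2% by TPM.

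For NVE13546 the ratios spread less than the pools did. The log2 CPM had an SD of 0.96 over the 4 shRNA libraries and 0.88 over the 4 controls, and over controls the median of all genes tested was 0.61, while the 4 log2 ratios had an SD of 0.25, against a median of 0.28. The spread of its ratios was ordinary, since 43.6% of genes tested had an SD of ratios no larger. Of the sum of squares of its log2 CPM, 77.6% lay between replicate numbers, 21.0% between groups and 1.44% in neither. The biological coefficient of variation estimated by edgeR was 0.558 without the replicate number as a block and 0.117 with it.

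The comparison of the groups asked how far NVE13546 depends on NvfoxE-like. In edgeR's quasi-likelihood test without a block, called the unpaired test here, the log2 fold change was -0.80 ± 0.54 (SE), with a 95% interval from -2.04 to 0.44 and an adjusted p of 1.00 over all genes. A gene was called at an adjusted p of 0.05 if its change also reached 0.585 on the log2 scale, the fold limit. The unpaired edgeR test called 0% of genes lower and 0% higher, although 231 lower and 75 higher genes passed an unadjusted p of 0.05 with the fold limit. Unpaired DESeq2 called 47 genes lower (0.224%) and 9 higher (0.0429%), and none of the 3 genes was among them. In the paired fit, which adds the replicate number as a block, NVE13546 fell by 0.81 ± 0.11 (SE, log2), with a 95% interval from -1.06 to -0.56 and an adjusted p of 0.00556 in edgeR. The paired fit called 203 lower genes, 1.07% of those tested, and 40 higher genes, 0.211%. Without replicate 4 the paired edgeR value was -0.80 with an adjusted p of 0.0642, and tested among transcripts in place of genes, with the block, its single transcript gave -0.82 with an adjusted p of 0.143, so the call was lost in both cases. Paired DESeq2, which called 1.30% of its genes lower and 0.329% higher, gave -0.81 with an adjusted p of 2.12e-07.

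NVE5730 was also lower in 4 of 4 pairs, and its call depended on the test. It measured 13.0, 6.49, 8.58 and 11.4 CPM in shRNA libraries 1 to 4, against 16.8, 11.7, 12.4 and 22.1 CPM in controls 1 to 4. By CPM the groups overlapped in a single library, shRNA replicate 1, which lay above controls 2 and 3. By TPM they overlapped more, since shRNA libraries 1, 3 and 4 (3.81, 4.68 and 5.36 TPM) lay above control 2 (2.30 TPM). The remaining share of the control level was 77.7%, 55.4%, 69.2% and 51.8% in replicates 1 to 4, and by TPM 74.7%, 62.2%, 78.7% and 62.4%. A lower level in 4 of 4 pairs was seen in 10.1% of all genes tested, so by itself it marks neither NVE5730 nor NVE13546, and 32.0% were lower in at least 3 of 4 pairs, as all 3 genes were. For 0 of the 3 did all 4 shRNA libraries lie below all 4 controls (0.784% of genes tested), and 0 of the 3 passed the fold limit in 4 of 4 pairs (1.05%).

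The unpaired edgeR test gave NVE5730 a log2 fold change of -0.67 ± 0.32 (SE), with a 95% interval from -1.40 to 0.057 and an adjusted p of 1.00. With the block the value was -0.67 ± 0.14 (SE), with a 95% interval from -0.99 to -0.35 and an adjusted p of 0.0603 in edgeR, just outside the threshold. Paired DESeq2 called the gene lower at -0.66 with an adjusted p of 0.0106, and the paired edgeR fit with no filter on low counts, which called 0.976% of its genes lower and 0.219% higher, gave -0.67 with an adjusted p of 0.0378. Two-sided exact permutation of the CPM, with 70 ways to divide the libraries 4 against 4, gave p = 0.114 for NVE5730 and p = 0.257 for NVE13546 (0.343 and 0.386 adjusted over the 3 genes), where the smallest possible value is 0.0286. The same exact permutation of the TPM gave p = 0.343 for NVE5730 and p = 0.371 for NVE13546, before adjustment. Flipping the signs of the 4 log2 ratios in an exact two-sided test gave p = 0.125 for both, which is the smallest it can give (0.188 adjusted). The sum of NVE5730 was whole to within 0.01 in 0 of 8 libraries, that of NVE13546 in 2 and that of dkk3-like3 in 3, and a sum that is not whole can hold reads that Salmon divided with another gene, in a number that was not measured.

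For dkk3-like3 the 4 pairs were not alike. It measured 11.7, 14.2, 3.96 and 6.93 CPM in shRNA libraries 1 to 4, against 12.5, 14.1, 7.44 and 10.8 CPM in controls 1 to 4. In replicates 3 and 4 the shRNA library held 53.2% and 64.0% of the control level, but in replicates 1 and 2 it held 93.8% and 100.5%. By TPM replicate 2 was on the other side, at 116.5%, while replicates 1, 3 and 4 were at 95.5%, 57.6% and 69.8%. The SD of the 4 log2 CPM ratios was 0.44, larger than the median of 0.28 over all genes.

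dkk3-like3 was called in none of the edgeR and DESeq2 fits run. The unpaired edgeR test gave -0.29 ± 0.41 (SE), with a 95% interval from -1.23 to 0.65 and an adjusted p of 1.00. With the block it was -0.40 ± 0.18 (SE), with a 95% interval from -0.80 to 0.0049 and an adjusted p of 0.511 in edgeR, so the interval still held changes beyond the fold limit. An exact permutation test of its CPM gave p = 0.486 and the exact sign-flip test p = 0.25, both two-sided. Without replicate 2 the paired value was -0.54, and without replicate 3 it was -0.24, with adjusted p of 0.470 and 0.569 in edgeR.

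Within the library name prefixes, dkk3-like3 gave -0.048 ± 0.20 (SE) in replicates 1 and 2 and -0.77 ± 0.27 (SE) in replicates 3 and 4 in the paired fits, with adjusted p of 0.971 and 0.125 in edgeR. The test of that difference, the interaction of group and prefix with the replicate block, gave -0.73 ± 0.30 (SE), with an unadjusted p of 0.0343 and an adjusted p of 1.00 over all genes in edgeR. Without the block it was -0.71 ± 0.52 (SE), also with an adjusted p of 1.00. For NVE5730 the values within the prefixes were -0.60 ± 0.23 and -0.74 ± 0.21 (SE), and for NVE13546 they were -0.73 ± 0.19 and -0.89 ± 0.17 (SE). Their interactions were -0.15 ± 0.30 and -0.16 ± 0.24 (SE), also with adjusted p of 1.00 in edgeR. In replicates 3 and 4 alone both NVE5730 and NVE13546 were called lower by paired edgeR (adjusted p = 0.0225 and 2.78e-05, with 1.65% of genes called lower and 0.842% higher), and in replicates 1 and 2 alone neither was (0.494 and 0.194). A fit to 2 pairs leaves a single residual degree of freedom, and what the prefix marks is not known.

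**Figure D2:**
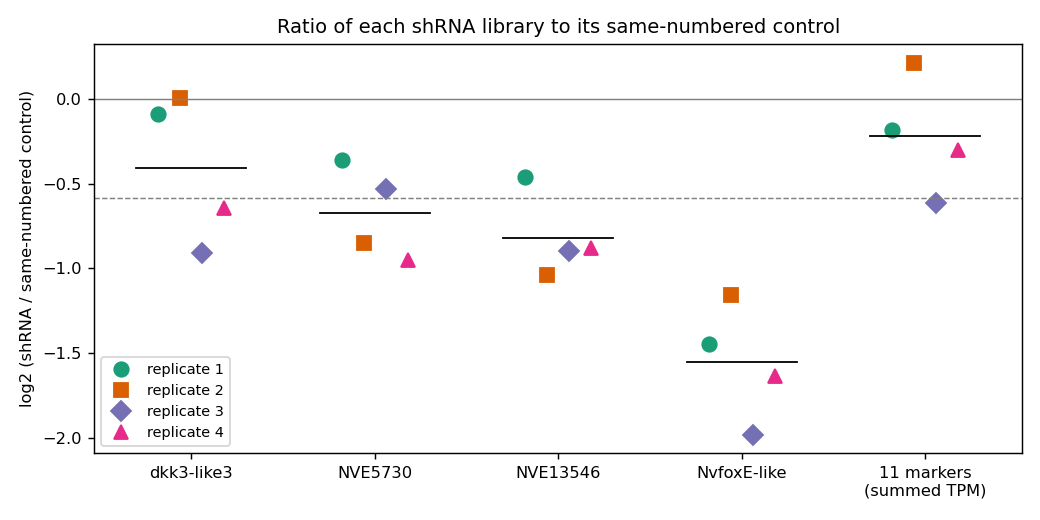
Log2 ratio of each shRNA library to the control of the same number, for the 3 genes and NvfoxE-like in CPM and for the summed TPM of 11 cnidocyte markers. Horizontal bars give the mean of 4 ratios and the dashed line marks a fall by the fold limit, 0.585. The ratios of dkk3-like3 run from -0.91 in replicate 3 to 0.0067 in replicate 2, while those of NVE13546 lie between -1.04 and -0.46.

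The 3 genes ordered the replicates differently. NvfoxE-like kept least of its control level in replicate 3, then 4, then 1 and most in replicate 2, and dkk3-like3 had the same order. The summed TPM of the 11 cnidocyte markers had this order too, at log2 ratios of -0.18, 0.21, -0.61 and -0.30 for replicates 1 to 4. The minicollagen gene ncol3 alone held 55.2% to 59.6% of the sum in shRNA libraries and 37.8% to 46.1% in controls. Without ncol3, an alternative chosen after seeing the data, the ratios were -0.57, -0.26, -1.03 and -0.66, in the same order but negative in replicate 2 too. Of the 11 markers, 7, 7, 11 and 8 were lower in the shRNA library of replicates 1 to 4. Among the markers, Ncol and NEP3-like carry the study's mark for NvfoxE-like, made from these same libraries. Paired edgeR called both of them and ncol1, ncol4 and mcol1 lower, beside 1.07% of all genes tested. The marker sum is therefore no independent measure of cnidocyte content. NVE13546 kept least in replicate 2 and most in replicate 1, and NVE5730 kept least in replicate 4 and most in replicate 1 by CPM, so neither followed that order. By TPM, NVE5730 kept least in replicate 2 and most in replicate 3, while the orders of the other 2 genes and of NvfoxE-like were those by CPM. With 4 pairs these orders are a description, and the part of the marker sum in the ratios of dkk3-like3 was not tested. The sum ranged from 1724 to 2607 TPM in shRNA libraries and from 1863 to 3209 TPM in controls. In libraries of whole embryos, fewer cnidocytes and less RNA per cnidocyte cannot be told apart.

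The fold changes were then compared between the genes, through the log2 ratio of one gene to another in each library. NVE13546 against dkk3-like3 differed by -0.41 between shRNA and control libraries, with values from -1.05 to 0.0096 in the 4 pairs. NVE5730 against dkk3-like3 differed by -0.26, with values from -0.86 to 0.38. NVE13546 against NVE5730 differed by -0.15, with values from -0.37 to 0.067. The 3 exact two-sided permutation tests gave p between 0.686 and 0.714, all 0.714 after adjustment over the 3 pairs of genes, and the exact sign-flip tests gave p of 0.25, 0.5 and 0.25 (0.375, 0.5 and 0.375 adjusted). On the TPM scale NVE13546 lay lower against dkk3-like3 by 0.42 and against NVE5730 by 0.18 on the log2 scale, in 4 of 4 pairs each, with an exact two-sided sign-flip p of 0.125, the smallest that 4 pairs can give (0.188 adjusted). On neither scale did a difference between the genes pass a test, and these tests do not show that the genes changed alike either.

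NVE5730 was the 1 gene of the 3 with several listed transcripts, of 2407, 4473 and 1699 bases, while dkk3-like3 has a single one of 1221 bases and NVE13546 a single one of 3556 bases. The transcript of 4473 bases held most of the estimated counts of NVE5730, with 77.2%, 71.3%, 51.3% and 60.8% in shRNA libraries 1 to 4, against 71.1%, 68.4%, 63.1% and 74.0% in the controls. Its Wilson 95% intervals overlapped between shRNA library and control in replicate 1 (72.0% to 81.3% against 66.0% to 75.7%) and in replicate 2 (61.5% to 78.6% against 62.1% to 74.1%). They nearly touched in replicate 3 (45.2% to 57.6% against 57.7% to 68.2%) and lay apart in replicate 4 (54.8% to 66.8% against 70.2% to 77.6%). These intervals cover counting error only and not Salmon's division of reads between transcripts. The transcript of 2407 bases held 21.4%, 28.7%, 47.8% and 38.5% in shRNA libraries 1 to 4, against 27.8%, 31.1%, 33.0% and 25.3% in the controls. Since it is the shorter one, its share of TPM was larger, at 49.4% ± 12.8 in shRNA libraries and 44.0% ± 3.44 in controls (SD, n = 4 each).

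Over the 4 libraries of each group, no shift of transcript use in NVE5730 passed a test. The transcript of 2407 bases had the larger share in the shRNA library of replicates 3 and 4 and the smaller one in replicates 1 and 2, and its Wilson intervals overlapped within replicates 1 and 2. They lay apart in replicate 3 (41.6% to 54.0% in the shRNA library against 28.2% to 38.5% in the control) and in replicate 4 (32.8% to 44.8% against 21.9% to 29.2%). The mean difference between shRNA and control libraries was 4.82 percentage points for the transcript of 2407 bases and -3.99 for that of 4473 bases, with exact two-sided permutation p of 0.486 and 0.6. The transcript of 1699 bases held 0.744% ± 0.589 in shRNA libraries and 1.57% ± 1.57 in controls (SD, n = 4 each), with an exact permutation p of 0.486. All 3 adjusted values were 0.6. In shRNA replicate 2 it had 0 counts, which allows a share of up to 2.84% by the limit of 3 counts and up to 3.50% by the Wilson interval. By transcript, the paired edgeR values were -0.52 ± 0.27 (SE) for the one of 2407 bases and -0.78 ± 0.21 (SE) for the one of 4473 bases, with adjusted p of 0.789 and 0.533 over all transcripts, and 0.0757% of transcripts were called lower in that fit. The transcript of 1699 bases had too few counts for it.

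**Figure D3:**
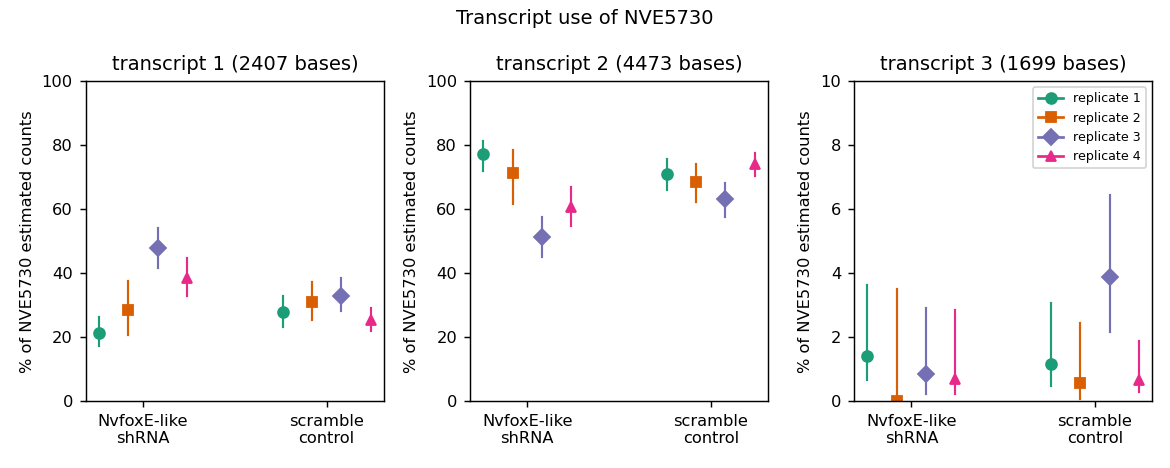
Share of the estimated counts of NVE5730 held by each listed transcript in each library, NvfoxE-like shRNA left and scramble control right, with Wilson 95% intervals for counting error. The third panel has its own scale of 0 to 10%. Shares of the transcript of 2407 bases span 21.4% to 47.8% in shRNA libraries and 25.3% to 33.0% in controls.

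Among the 10 collection genes of the same class, the 3 genes had smaller fold changes than the 4 others that were called. Counts sufficed for 9 of the 10, of which 5 fell, 0 rose and 4 were not called when paired, beside 1.07% of all genes called lower and 0.211% higher, with a median log2 fold change of -0.81, against 0.017 over all genes tested. Without replicate 1 the paired count was 4, with CALM3-like lost, and without replicate 4 it was 3, with CALM3-like and NVE13546 lost. In the unpaired edgeR test 0 of the 9 were called, although 4 were lower and 0 higher at an unadjusted p of 0.05 with the fold limit, as were 231 and 75 of all 19002 genes. Unpaired DESeq2 called NVE15732 (-4.41, adjusted p of 5.35e-06) and NVE15733 (-3.31, adjusted p of 0.00257) lower, beside 0.224% of all its genes. NVE15732 fell by 4.36 ± 0.50 (SE) and NVE15733, with the next identifier, fell by 3.14 ± 0.15 (SE), both log2 values with the block. NVE3843 fell by 1.84 ± 0.12 (SE) and CALM3-like, named after calmodulin, a calcium-binding protein, fell by 1.33 ± 0.21 (SE). These 4 genes carry the study's marks for both Nvznf845 and NvfoxE-like, and their adjusted p in paired edgeR ran from 3.95e-05 to 0.0118. The marks came from these libraries and are no independent evidence of the direction.

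The 5 genes of the class marked for Nvznf845 alone are the 3 described here, ANTR2-like and NVE26200. Of the 4 with enough counts 1 fell in the paired fit, NVE13546, beside 1.07% of all genes called lower, and the median log2 fold change was -0.53 in both fits. ANTR2-like, named after an anthrax toxin receptor, had -0.35 ± 0.18 (SE) with an adjusted p of 0.556 in paired edgeR. NVE26200 was not tested, with a sum of 4 rounded counts over all shRNA libraries, against 25 over all controls. By level in the controls, NVE13546, dkk3-like3 and NVE5730 held ranks 3, 4 and 7 of the 10 in TPM, below NVE3843 at 68.7 ± 19.8 TPM (SD, n = 4).

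**Figure D4:**
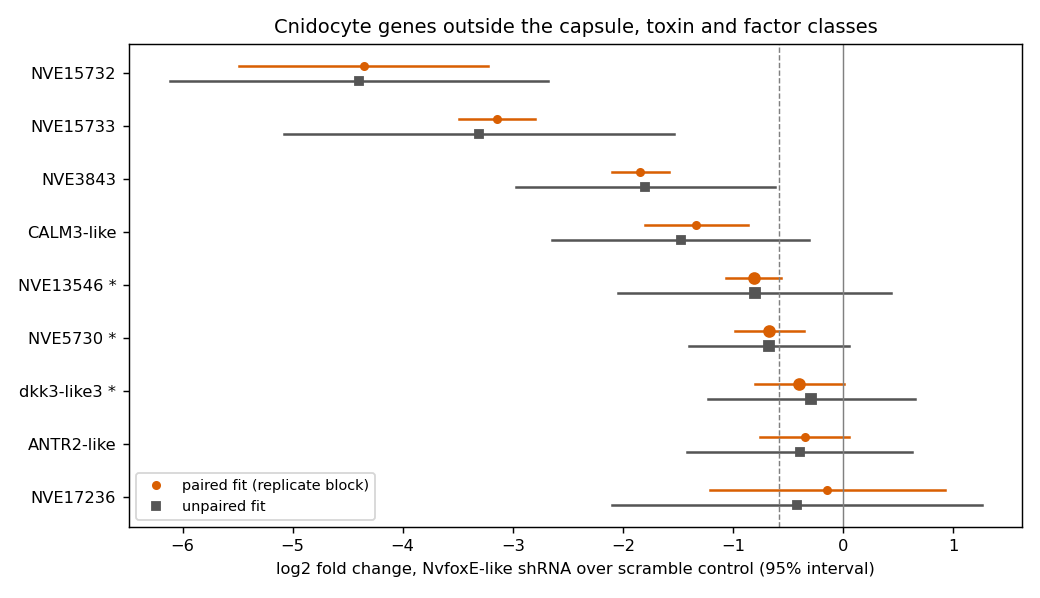
Log2 fold change of NvfoxE-like shRNA over scramble control with its 95% interval, for the 9 tested cnidocyte genes of the class (asterisks mark the 3 described genes), in the paired fit (circles) and the unpaired test (squares). The dashed line is the fold limit. In the paired fit the interval of NVE13546 runs from -1.06 to -0.56, that of NVE5730 from -0.99 to -0.35 and that of dkk3-like3 from -0.80 to 0.0049.

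By CPM, NVE5730 and NVE13546 were both lowest in shRNA replicate 2 and highest in control replicate 4. The highest shRNA library was replicate 1 for NVE5730 and replicate 4 for NVE13546. By contrast, dkk3-like3 was lowest in shRNA replicate 3 and highest in shRNA replicate 2. The nearest genes of the collection differed for each of the 3. Among controls by TPM, all 3 genes were lowest in replicate 2 and highest in replicate 4. Among shRNA libraries by TPM, dkk3-like3 was lowest in replicate 3, and NVE5730 and NVE13546 in replicate 2. Likeness was not measured on the TPM scale. Likeness was measured as the root mean square difference of log2 CPM over the 8 libraries, each gene centred on its own mean, among the 33 other tested genes of the collection. The nearest to dkk3-like3 were the minicollagen gene ncol4 at 0.25 and Ngal, a capsule gene, at 0.26, and all of its 5 nearest were capsule genes, of which the collection has 7. Among all 19001 other tested genes ncol4 was only the 110th nearest to dkk3-like3, Ngal the 136th and ncol1, the last of the 5, the 1010th. By CPM, ncol4 and Ngal were high in replicate 2 and low in replicate 3, as dkk3-like3 was. By TPM, control 2 was the lowest control for dkk3-like3 (9.67) and ncol4 (359). Ngal had 253 TPM in control 2, against 278 in control 4. Among shRNA libraries by TPM, ncol4 and Ngal were still highest in replicate 2, and both were lowest in replicate 3, as dkk3-like3 was. The nearest to NVE5730 were ggt, a capsule class gene, at 0.32 and the Sox-family factor gene SoxA at 0.40. Among all other tested genes ggt was the 61st nearest to NVE5730 and SoxA the 434th. The nearest to NVE13546 were ANTR2-like at 0.41 and ATF2-like1, a gene named after a bZIP factor, at 0.51. Its 4th nearest in the collection was NVE5730 at 0.55, and its 5 nearest included 0 capsule genes. Among all other tested genes ANTR2-like was the 67th nearest to NVE13546 and ATF2-like1 the 329th. For comparison, the median difference to all tested genes was 0.72 for dkk3-like3, 0.77 for NVE5730 and 1.03 for NVE13546.

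With the block, the fold changes of these near genes were as follows. The minicollagen gene ncol4 fell by 0.80 ± 0.16 (SE, log2; adjusted p of 0.0394 in edgeR), and dkk3-like3 had -0.40. For ncol4 the threshold was missed without replicate 1 (adjusted p of 0.133 in edgeR), without replicate 4 (0.155) and, by the fold limit, without replicate 3 (-0.58). Ngal had -0.54 ± 0.097 (SE), which misses the fold limit. Near NVE5730, which had -0.67 ± 0.14 (SE), ggt had -0.54 ± 0.14 (SE) and SoxA had -1.02 ± 0.24 (SE), with adjusted p of 0.172 and 0.0972 in edgeR. ATF2-like1 had -0.14 ± 0.091 (SE), and NVE13546 fell by 0.81. These profiles follow mostly the differences between replicate numbers, and the differences between these fold changes were not tested.

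**Figure D5:**
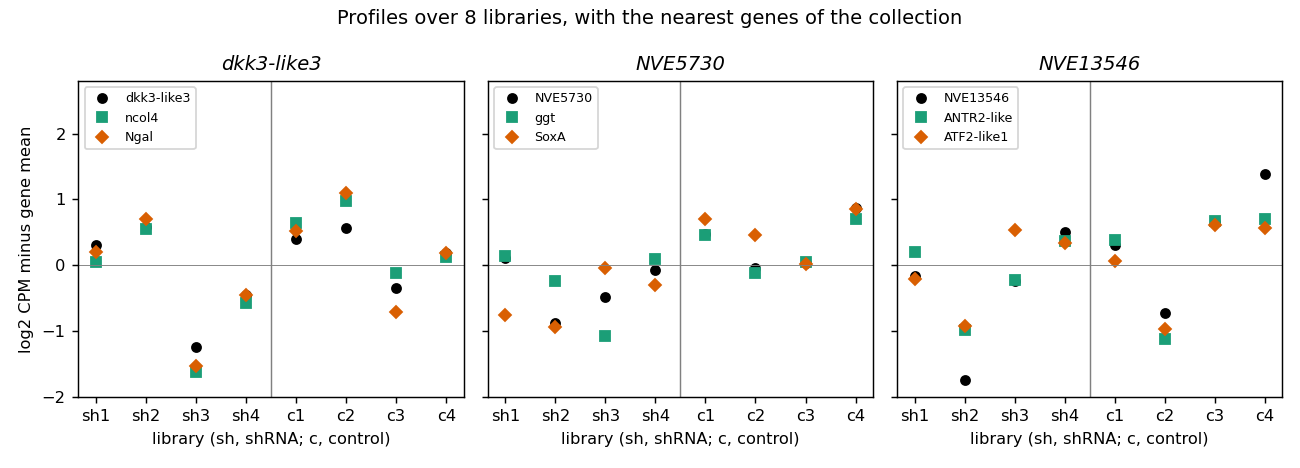
Log2 CPM of each gene minus its own mean over the 8 libraries, with the 2 nearest genes of the collection, for shRNA libraries 1 to 4 (left of the line) and control libraries 1 to 4 (right). The low point of dkk3-like3, ncol4 and Ngal is shRNA replicate 3, and that of NVE5730 and NVE13546 is shRNA replicate 2.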

How the data were processed

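The authors ran Salmon on trimmed 150 bp reads, with Nvec200 transcripts as the index, and deposited for each library an estimated count and a TPM value of 35819 transcripts. The submitters' notes name Salmon and DESeq2 without versions, and the strand setting is not given in the sources used here. Gene sums of the estimated counts were rounded. Of 23769 genes with any count, 19002 passed filterByExpr of edgeR (minimum count 10) and were tested together with edgeR 4.0.16 (R 4.3.3) by the quasi-likelihood test with TMM scaling and Benjamini-Hochberg adjustment. The thresholds were an adjusted p of 0.05 and a log2 fold change of 0.585. Standard errors were derived from the F statistic. DESeq2 1.42.0 was an alternative. Exact permutation and sign-flip tests were run on single values.

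Across genes, the deviation of an shRNA library from its group mean correlated with that of the control of its number at 0.41, 0.83, 0.83 and 0.69 for replicates 1 to 4. Libraries of different number but shared prefix correlated as well, at 0.43 to 0.69, and shRNA 1 correlated more with control 2 (0.47) than with control 1, so the correlations alone do not separate pairs from prefixes. All same-numbered values exceeded 0.1 and the study's methods describe pairs, so the replicate numbers were treated as pairs and paired values are given beside unpaired ones for the 3 genes. Fold changes of other genes are from the paired fit unless stated otherwise. None of them was called by unpaired edgeR, at adjusted p of 0.850 to 1.00. Unpaired DESeq2 called NVE15732 and NVE15733 lower, and also the marker NEP3-like (-2.10, adjusted p of 0.00275). Each replicate was a set of injected embryos according to the study's methods, and no 2 libraries agreed within sampling noise (chi-square per degree of freedom of at least 21.3). A limit of 3 counts corresponded to between 0.104 and 0.184 CPM.

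The 3 genes, the gene lists and the tests were chosen with earlier results of these data known. The rule for named genes took the 3 genes, NvfoxE-like, the 2 collection genes and the 1 tested gene nearest in profile to each, and the called collection genes of the same class. NVE26200 was named after its values were seen. Identifiers were those of the study's collection. The available RefSeq gene table (assembly jaNemVect1.1) does not hold them, so no sequence or coordinate is given, and markers of other cell types were not analysed here. Deposited TPM was used to compare levels between genes and as an alternative scale.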

Additional observations from a re-analysis of the deposited data

How the results depend on the processing

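Unpaired, edgeR called none of the 3 genes under any of the settings listed here: RLE scaling, no filter, length offsets, unrounded counts, the prefix as covariate, library size only, tests per transcript, or leaving out a replicate or a single library. Their log2 fold changes without single replicates or libraries ran from -0.57 to -0.047 for dkk3-like3, from -0.83 to -0.47 for NVE5730 and from -1.16 to -0.40 for NVE13546. With the replicate block NVE13546 was called at -0.81, with DESeq2 (-0.81), with no filter (-0.81), RLE scaling (-0.81), length offsets (-0.81) and library size only (-0.78), and in replicates 3 and 4 alone (-0.89), and at -0.93 to -0.75 without replicates 1, 2 or 3, while the call was lost without replicate 4 (-0.80), in replicates 1 and 2 alone (-0.73) and per transcript (-0.82). NVE5730 was called with the block by DESeq2 (-0.66), with no filter (-0.67) and in replicates 3 and 4 alone (-0.74), and not without any single replicate (-0.78 to -0.58). Genes called lower and higher numbered 0 and 0 unpaired, 47 and 9 with unpaired DESeq2, 203 and 40 with the block, 262 and 66 with DESeq2 and the block, 232 and 52 with no filter, 201 and 42 with RLE scaling, 202 and 41 with length offsets, 185 and 39 with library size only, 128 and 49 in replicates 1 and 2, 321 and 164 in replicates 3 and 4, and 19 and 0 per transcript, all these with the block. Without replicates 1 to 4 in turn, the paired fit called 132, 237, 174 and 127 genes lower and 13, 34, 35 and 23 higher, and unpaired fits without single libraries called 0, except 1 lower without control replicate 3 and 1 higher without control replicate 4. The paired fits under other filters, scalings and length offsets, the library size scaling and the interaction with the block were added after seeing the data. Exact permutation tests of levels, transcript shares and differences between the genes kept their sign and side of the threshold on the TPM scale and without single replicates, but 3 libraries against 3 cannot reach an exact p below 0.1 and several values moved. Without single replicates the difference of NVE5730 over dkk3-like3 ran from -0.48 to -0.066 (lowest without replicate 3, nearest 0 without replicate 2), that of NVE13546 over dkk3-like3 from -0.55 to -0.20 (likewise), and that of NVE13546 over NVE5730 from -0.22 to -0.073 (without replicates 4 and 3). For the transcript of 2407 bases, the difference in share (shRNA minus control) ran from 1.501 to 8.55 percentage points, without replicates 3 and 1. For that of 4473 bases it ran from -7.35 (without replicate 1) to -0.91 (without replicate 4). For that of 1699 bases it ran from -1.19 (without replicate 1) to -0.094 (without replicate 3).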

Other observations

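Among all 19001 other tested genes, the one nearest in profile to dkk3-like3 was NV2.2739, at a root mean square difference of 0.11 in log2 CPM. It was lower in 4 of 4 pairs and had -0.34 ± 0.19 (SE) on the log2 scale in paired edgeR, with an adjusted p of 0.583. The nearest to NVE5730 was NV2.17001 at 0.15, with -0.79 ± 0.19 (SE) and an adjusted p of 0.101 in paired edgeR. The nearest to NVE13546 was NV2.3098, also at 0.15, which was lower in 4 of 4 pairs and fell by 0.63 ± 0.11 (SE) with an adjusted p of 0.0285 in paired edgeR. It measured 34.0, 13.4, 32.6 and 52.9 CPM in shRNA libraries 1 to 4, against 41.1, 20.7, 62.1 and 84.4 CPM in controls 1 to 4. These 3 genes carry identifiers only.

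The transcript of 1699 bases of NVE5730 had its largest share in control replicate 3. There it held 3.90% of the gene's estimated counts (Wilson 95% interval from 2.16% to 6.44%, 12.5 estimated counts). In the other 7 libraries it held at most 1.43%. Their intervals overlapped that of control replicate 3, as in shRNA replicate 1 (0.68% to 3.64%), except in control replicate 4 (0.29% to 1.89%).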
